A study of Mus musculus with 4 samples.

Results

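Collagens are built from chains that are each encoded by a gene of its own, and the genes of these chains were examined in mouse lung RNA. The rule took every row of the expression table whose symbol is Col, a type number, the letter a and a chain number, which gave 43 of the 17780 genes listed. They comprised 11 fibrillar chains, 6 type IV chains and 26 chains of other types. The left lungs came from male C57BL/6J mice, 6 to 7 weeks old at purchase, that had received vehicle (0.5% carboxymethylcellulose), amiodarone at 300 mg/kg/day, dabigatran (given as dabigatran etexilate) at 60 mg/kg/day, or amiodarone + dabigatran at these doses. All doses were given by mouth 5 times per week for 4 weeks. Each group was represented by 1 library, which the labels date to 28 days and the methods to day 26, and the labels do not say whether a library came from 1 animal. Amiodarone is an antiarrhythmic drug known for lung toxicity, and dabigatran is a direct thrombin inhibitor. The study asked how amiodarone altered genes linked to inflammation and fibrosis in the lung, and whether dabigatran changed that response.

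Each collagen molecule is a triple helix of 3 chains. Fibrillar collagens, chiefly types I and III in lung, assemble into the tensile fibres of airway walls, vessels and septa, and they are the collagens that accumulate in fibrotic lung. Type V chains are built into the same fibrils and regulate their width. Type IV collagen forms the sheet-like network of basement membranes, in which the chains of Col4a1 and Col4a2 are found in most tissues and those of Col4a3, Col4a4 and Col4a5 in the alveolar and glomerular basement membranes. Type VI collagen makes beaded filaments between the basement membrane and the fibres. A messenger RNA level says nothing of how much protein lies in the matrix, where collagen turns over slowly.

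Values are FPKM, that is, fragments per kilobase of transcript after scaling to sequencing depth, so that levels of different genes can be compared per length. Total estimated reads ranged from 17498486 to 18903401 per library, and the collagen chains took 0.547% of the reads with vehicle, 0.504% under amiodarone, 0.639% under dabigatran and 0.494% under both drugs. A ratio was formed for genes with at least 10 reads in at least 1 library, which 36 of the 43 chains passed. The range in parentheses after a ratio is an exact Clopper-Pearson 95% interval for the reads behind both values, rescaled to the ratio of FPKM. It covers counting error only. With 1 library per group there was no replicate check and no test of a treatment, so that "higher" and "lower" below compare libraries. "Beyond counting error" means that the interval excluded 1.

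Sequences are shown for 2 reasons. The first set marks the stretches of Col3a1 and Col1a1 messenger RNA that the study amplified in its quantitative reverse transcriptase polymerase chain reaction, since these chains were among the most abundant. The primers, all 5′ to 3′ and listed by the study under the names Col3a1 and Cola1, matched only these genes among the GENCODE transcripts. The Col3a1 pair spans 110 coding bases over exons 39 to 40 of 51, at chr1:45340967-45341186, and the Col1a1 pair spans 188 coding bases over exons 50 to 51 of 51, at chr11:94951290-94951606 (GRCm38).
Col3a1 forward: accaaaaggtgatgctggac
Col3a1 reverse: gacctcgtgctccagttagc
Col1a1 forward: agaggcgaaggcaacagtcg
Col1a1 reverse: gcagggccaatgtctagtcc

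The second set gives the sequence just upstream of chains that were at least 1.5-fold lower in the amiodarone library and had at least 1000 reads with vehicle. These were Col3a1, Col6a3 and Col12a1, and a window clear of annotated exons was at hand for Col3a1 (chr1:45311288-45311537, plus strand) and Col6a3 (chr1:90844002-90844221, minus strand) in RefSeq, GRCm38.p6. Both strands were searched for CCAAT, for the GC box letters GGGCGG and for the TATA box letters TATAAA. Capitals mark the only match, a TATAAA in the Col3a1 window that begins 117 bases before the annotated start. Over the 32851 promoter windows of the same table, 33.8% held CCAAT, 32.7% held the GC box letters and 12.4% held the TATA box letters in the 250 bases upstream. The GC content was 35.2% in the Col3a1 window and 56.4% in the Col6a3 window. A match of letters is a description and does not show a working site.
Col3a1 upstream: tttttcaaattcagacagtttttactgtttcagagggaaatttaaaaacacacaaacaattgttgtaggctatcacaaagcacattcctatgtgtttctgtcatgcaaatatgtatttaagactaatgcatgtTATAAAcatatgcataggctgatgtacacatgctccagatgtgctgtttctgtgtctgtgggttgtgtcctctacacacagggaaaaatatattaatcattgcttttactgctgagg
Col6a3 upstream: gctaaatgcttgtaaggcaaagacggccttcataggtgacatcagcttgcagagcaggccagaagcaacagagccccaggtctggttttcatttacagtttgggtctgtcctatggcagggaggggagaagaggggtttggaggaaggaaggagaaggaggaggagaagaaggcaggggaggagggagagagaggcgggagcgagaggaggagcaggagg

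The collagen transcripts of the vehicle lung were dominated by a few chains. Col4a1 was the most abundant at 152.44 FPKM, followed by Col4a2 at 138.08, Col3a1 at 95.56, Col1a1 at 93.44, Col1a2 at 92.97, Col6a1 at 81.29 and Col6a2 at 72.56. The chains of types I and III together reached 282 FPKM, or 30.1% of the collagen total, and Col4a1 and Col4a2 together 291 FPKM, or 31.0%. Col2a1, the main fibrillar chain of cartilage, had at most 3 reads in any library. The other chains under 10 reads everywhere were Col9a2 (at most 1 read), Col10a1 (at most 3), Col19a1 (at most 4), Col11a1 (at most 6), and Col22a1 and Col24a1 (each at most 7). The plot of levels by library shows that the spread between chains was much wider than the spread between libraries for any well-covered chain.

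**Figure D1:**
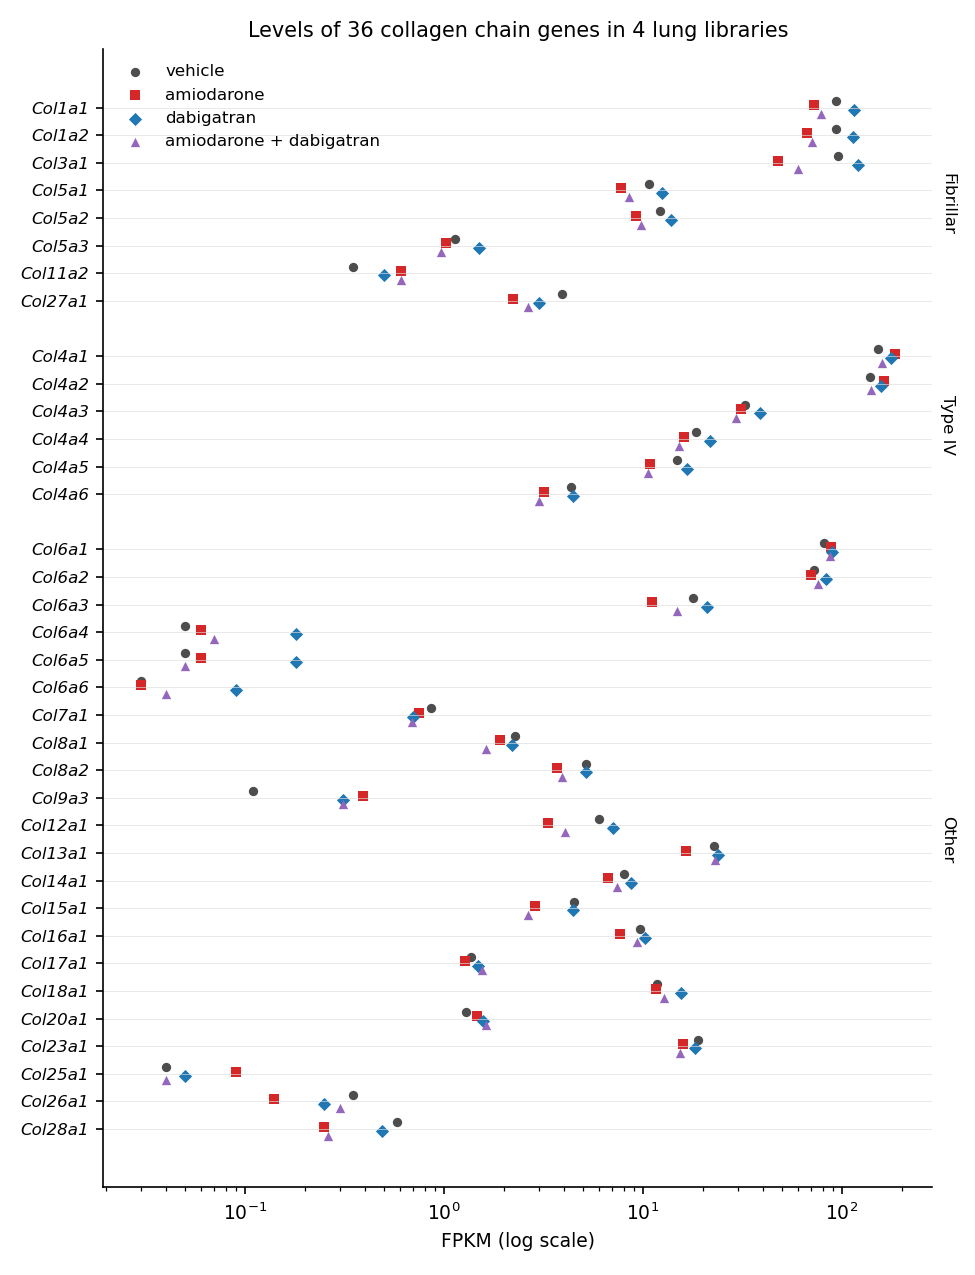
FPKM of the 36 collagen chain genes with at least 10 reads in at least 1 library (log scale), with 1 point per library and the chains grouped as fibrillar, type IV and other. The vehicle library held Col4a1 at 152.44 FPKM and Col1a1 at 93.44 FPKM, and 9 chains stayed under 1 FPKM in every library with the lowest at 0.03 FPKM (Col6a6).

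The fibrillar collagens stood lower after amiodarone than after vehicle, and the difference was most marked for Col3a1. Col3a1, the chain of type III collagen in the extensible fibres of vessels and septa, was at 95.56 FPKM with vehicle, 47.65 under amiodarone, 121.03 under dabigatran and 59.89 under both drugs. The 2 libraries with amiodarone were both below the 2 without it. The ratio of amiodarone to vehicle was 0.499 (0.482 to 0.516), and that of amiodarone + dabigatran to dabigatran was 0.495 (0.480 to 0.510). These 2 ratios share no library and differed by less than counting error, with a quotient of 1.01 (0.962 to 1.06). Dabigatran alone gave a ratio to vehicle of 1.27 (1.23 to 1.30), and adding dabigatran to amiodarone gave 1.26 (1.21 to 1.30).

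Type I collagen, the main load-bearing fibre, had the same order of libraries but a smaller difference. Col1a1 was at 93.44 FPKM with vehicle, 72.13 under amiodarone, 115.29 under dabigatran and 78.58 under both drugs. Its ratio of amiodarone to vehicle was 0.772 (0.749 to 0.795), and that of amiodarone + dabigatran to dabigatran was 0.682 (0.663 to 0.701). Col1a2, the second chain of type I collagen, was at 92.97, 66.68, 114.16 and 70.63 FPKM in the same order of libraries, with ratios of 0.717 (0.694 to 0.741) and 0.619 (0.60 to 0.638). Unlike for Col3a1, the 2 ratios differed beyond counting error, with quotients of 1.13 (1.09 to 1.18) for Col1a1 and 1.16 (1.11 to 1.21) for Col1a2. For both chains the dabigatran library was the highest, at 1.23 times vehicle for Col1a1 (1.2 to 1.27) and for Col1a2 (1.19 to 1.26). In the study's replicated time course by polymerase chain reaction, no apparent rise of profibrotic genes with amiodarone was reported. Its Sirius red staining showed no apparent build-up of matrix after amiodarone. The text of the study gives no value for single collagen chains.

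The main type V chains, Col5a1 and Col5a2, which join and nucleate the type I fibril, followed the same order of libraries. Col5a1 was at 10.68 FPKM with vehicle, 7.76 under amiodarone, 12.43 under dabigatran and 8.51 under both drugs. Its partner Col5a2, which lies next to Col3a1 on chromosome 1 with 24624 bases between them, was at 12.23, 9.19, 13.90 and 9.75 FPKM. The ratios of amiodarone to vehicle were 0.727 (0.673 to 0.784) for Col5a1 and 0.751 (0.694 to 0.813) for Col5a2, so both stood closer to type I than to type III. Col5a3, a minor type V chain, was at 1.13, 1.02, 1.5 and 0.96 FPKM, and its ratio of 0.903 (0.693 to 1.17) lay within counting error.

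The remaining fibrillar chains were low and did not follow that order. Col27a1, a fibrillar chain best known from cartilage, was at 3.92 FPKM with vehicle, 2.21 under amiodarone, 3.0 under dabigatran and 2.64 under both drugs. It was the only collagen chain that was lower with dabigatran alone beyond counting error, at a ratio of 0.765 (0.670 to 0.874). Col11a2, also known from cartilage, was at 0.35, 0.61, 0.50 and 0.61 FPKM from 35, 59, 48 and 63 reads, and was the 1 fibrillar chain that was higher with amiodarone beyond counting error (1.74, 1.13 to 2.73). Of 8 cartilage markers, 7 were in the table and 3 had at least 10 reads in a library, and they summed to 0.560, 0.710, 0.680 and 0.650 FPKM, with Matn1, Matn3, Cnmd and Snorc at no more than 2 reads in any library. Sox9, which is also made by airway cells, had 10, 27, 24 and 20 reads, and its part in the Col11a2 values was not tested.

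**Figure D2:**
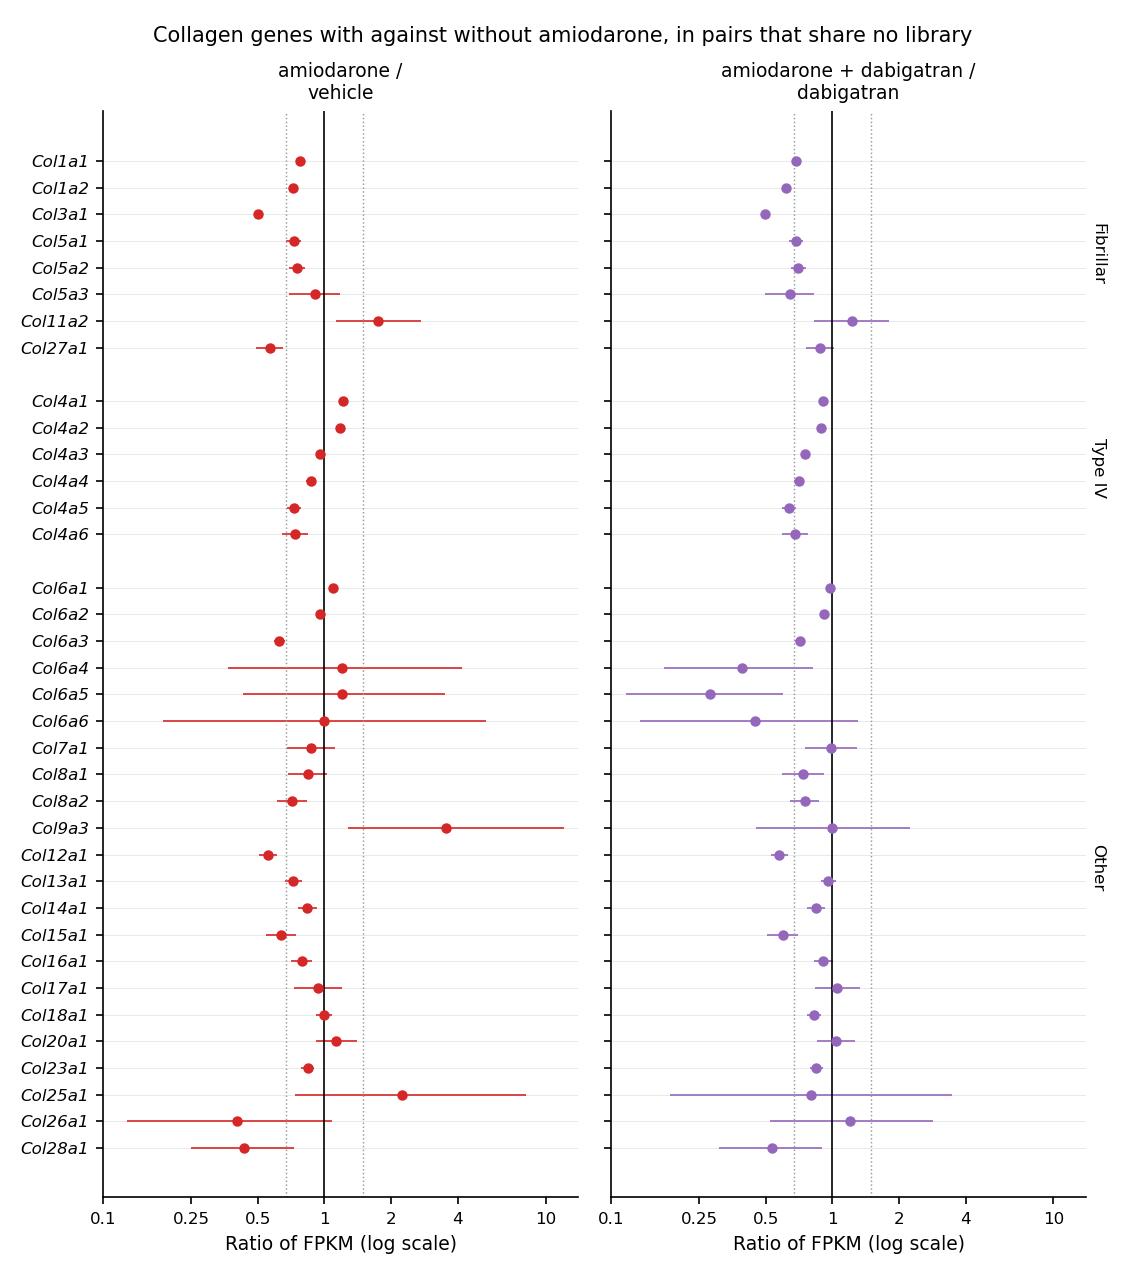
Ratio of FPKM (log scale) for 36 collagen chain genes, amiodarone to vehicle on the left and amiodarone + dabigatran to dabigatran on the right. Points are ratios, bars are 95% intervals for counting error, and dotted lines mark 1.5-fold. Col3a1 lies at 0.499 and 0.495, while Col4a1 lies at 1.21 on the left and 0.904 on the right.

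Counted over the 36 chains, 7 were at least 1.5-fold lower and 3 at least 1.5-fold higher after amiodarone than after vehicle. Over all genes passing the same filter, 9.77% were at least 1.5-fold lower and 6.70% at least 1.5-fold higher. The 7 lower chains were Col3a1, Col27a1, Col6a3, Col12a1, Col15a1, Col26a1 and Col28a1, and the 3 higher chains were Col11a2, Col9a3 and Col25a1, each with 59 reads or fewer in any library of this comparison. Beyond counting error, 20 chains were lower and 5 higher, against 28.1% and 18.0% of all genes. The median log2 ratio was -0.25 over the chains and -0.06 over all genes. By class it was -0.44 for the 8 fibrillar chains, -0.14 for the 6 type IV chains and -0.22 for the 22 other chains. Fewer cells of a type and less RNA per cell cannot be told apart in whole lung.

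In the second comparison of amiodarone, amiodarone + dabigatran against dabigatran alone, 10 chains were at least 1.5-fold lower and none was at least 1.5-fold higher. The 10 were Col1a2, Col3a1, Col5a3, Col4a5, Col12a1, Col15a1 and, from 41 reads or fewer per library, Col6a4, Col6a5, Col6a6 and Col28a1. Over all genes the shares were 6.82% lower and 5.91% higher. Beyond counting error, 24 chains were lower and 0 higher, against 22.1% and 17.9% of all genes. The median log2 ratio was -0.41 over the chains and -0.02 over all genes, and by class it was -0.55 for fibrillar, -0.46 for type IV and -0.26 for other chains. Because these libraries are distinct from those of the first comparison, the directions can be set side by side. Of the 36 chains, 24 (66.7%) were below 1 in both comparisons and 2 (5.56%) above 1 in both, whereas 37.8% of all genes were below and 25.7% above in both. Lower beyond counting error in both were 17 chains (47.2%), against 12.2% of all genes. Higher beyond counting error in both were 0 chains, against 9.28% of all genes. Across the 8 fibrillar chains Pearson's r between the log2 ratios was 0.75, across the 6 type IV chains 0.98, across all 36 chains 0.18 and across all genes 0.49. The fibrillar value leans on Col11a2, the only fibrillar chain above 1 in both (log2 ratios 0.80 and 0.29, from 63 reads or fewer). Among the others the sizes did not always match, as for Col27a1 (-0.83 and -0.18) and Col5a3 (-0.15 and -0.64). The type IV value describes the order of the chains and not a shared direction. Col4a1 (log2 ratios 0.27 and -0.15) and Col4a2 (0.24 and -0.17) had ratios above 1 in the first comparison and below 1 in the second. All values of r are descriptions across genes of the same 4 libraries, and genes are not independent replicates.

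With dabigatran alone, most chains were slightly above vehicle, 29 of 36, against 7562 of 15129 among all genes. Among genes of at least 5000 bases, 66.9% were above 1, and so were 18 of the 23 chains of that length. The part of length was not tested. At least 1.5-fold higher were 4 chains (3.28% of all genes were), namely Col6a4, Col6a5, Col6a6 and Col9a3, none with more than 30 reads in a library, and 0 were at least 1.5-fold lower (3.33% of all genes). Beyond counting error, 18 chains were higher and 1 was lower, against 13.9% and 12.4% of all genes. The median log2 ratio was 0.20 over the chains and 0.00 over all genes. It was 0.30 for fibrillar, 0.20 for type IV and 0.13 for other chains.

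With dabigatran added to amiodarone the classes differed by small amounts, with median log2 ratios of 0.10 (fibrillar), -0.08 (type IV) and 0.13 (other). Over the 36 chains, 1 was at least 1.5-fold higher (4.71% of all genes) and 1 at least 1.5-fold lower (3.70%), namely Col26a1 and Col25a1, each with 16 reads or fewer. Beyond counting error, 12 chains were higher and 3 lower, against 19.4% and 13.8% of all genes. The median log2 ratio was 0.08 over the chains and 0.04 over all genes. Among fibrillar chains 6 of 8 were above 1 and 5 of these were higher beyond counting error. All 6 type IV chains were below 1, with Col4a1, Col4a2 and Col4a3 lower beyond counting error and the rest within it. Of all 15152 genes, 8651 were above 1 and 6380 below. Among genes of at least 5000 bases, 57.6% were below 1.

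Transcript length moved with some of these comparisons. Collagen transcripts are long, with a median effective length of 6185 bases over the 28 chains where the deposited values allowed an estimate, against 2897 bases over 11937 genes. Across all these genes, Spearman's rho between length and log2 ratio was 0.06 for amiodarone against vehicle, 0.26 for dabigatran against vehicle, -0.20 for amiodarone + dabigatran against amiodarone and -0.27 for amiodarone + dabigatran against dabigatran. Among the 2155 genes of at least 5000 bases the median log2 ratios were -0.03, 0.06, -0.03 and -0.12 in the same order, and among the 23 chains of that length they were -0.26, 0.21, 0.08 and -0.49. The part of length in the collagen ratios was not tested further.

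Within type IV collagen the chains separated. Col4a1 was at 152.44 FPKM with vehicle, 183.86 under amiodarone, 176.45 under dabigatran and 159.49 under both drugs. Col4a2, whose 5′ end lies 84 bases from that of Col4a1 on the opposite strand of chromosome 8, was at 138.08, 162.88, 156.89 and 139.52 FPKM. For both chains each drug alone was above vehicle, and the library with both drugs was below either. The ratios of amiodarone to vehicle were 1.21 (1.18 to 1.23) for Col4a1 and 1.18 (1.15 to 1.2) for Col4a2. Against dabigatran, the library with both drugs had ratios of 0.904 (0.886 to 0.922) and 0.889 (0.871 to 0.908).

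The chains of the mature alveolar network did not share the higher value with amiodarone. Col4a3 was at 32.51 FPKM with vehicle, 30.98 under amiodarone, 38.83 under dabigatran and 29.32 under both drugs. Col4a4, head to head with Col4a3 on chromosome 1 with 5′ ends 113 bases apart, was at 18.47, 16.02, 21.69 and 15.25 FPKM. Col4a5 was at 14.91, 10.87, 16.64 and 10.61 FPKM. In each case the libraries with amiodarone were the lower pair and the dabigatran library was the highest. The ratio of amiodarone to vehicle was 0.953 (0.916 to 0.992) for Col4a3, 0.867 (0.823 to 0.914) for Col4a4 and 0.729 (0.678 to 0.784) for Col4a5. Col4a6, which shares a bidirectional arrangement with Col4a5 on chromosome X and is better known from smooth muscle basement membranes, was at 4.33, 3.17, 4.43 and 3.0 FPKM, with a ratio of 0.732 (0.639 to 0.838). Reads from overlapping head-to-head genes were assigned by the study's pipeline, and whether it used strand is not given in the sources used here.

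**Figure D3:**
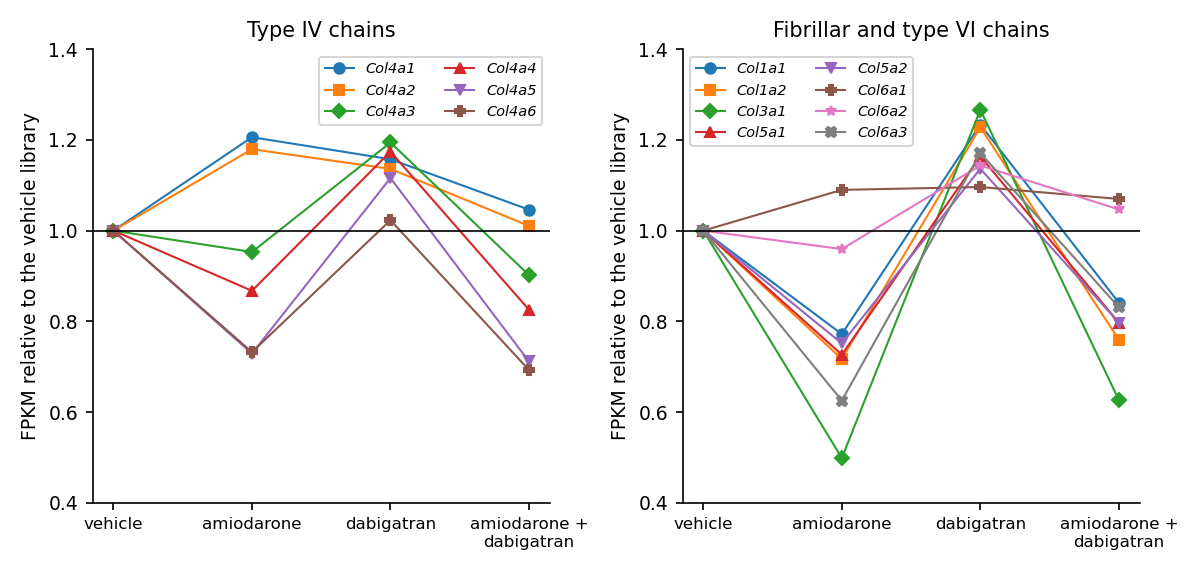
FPKM relative to the vehicle library for the 6 type IV chains on the left and for fibrillar and type VI chains on the right, with 1 library per treatment and lines joining the points of a chain. With amiodarone Col4a1 and Col4a2 lie above 1 and the other type IV chains below 1, and Col3a1 is the lowest chain shown.

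Proportions within a library do not depend on scaling between libraries. Col4a2 per Col4a1 was 0.906 (0.886 to 0.926) with vehicle, 0.886 (0.869 to 0.903) under amiodarone, 0.889 (0.871 to 0.907) under dabigatran and 0.875 (0.857 to 0.893) under both drugs, so the pair of chains that form 1 molecule kept nearly the same proportion. Col4a5 per Col4a1 was 0.0978, 0.0591, 0.0943 and 0.0665 in the same order, lower in both libraries with amiodarone. The interval with amiodarone (0.0559 to 0.0625) did not reach that with vehicle (0.0930 to 0.103). Col4a3 per Col4a1 was 0.213, 0.168, 0.220 and 0.184. Col4a6 per Col4a5 stayed between 0.266 and 0.292 in all 4 libraries, within counting error of each other.

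Among the fibrillar chains, Col1a2 per Col1a1 was 0.995 with vehicle, 0.924 under amiodarone, 0.990 under dabigatran and 0.899 under both drugs. Col3a1 per Col1a1 varied far more, at 1.02 (0.994 to 1.05), 0.661 (0.637 to 0.685), 1.05 (1.02 to 1.08) and 0.762 (0.738 to 0.787). Col5a2 per Col5a1 lay between 1.12 and 1.18 in all libraries. The chains of types I and III made up 30.1% of the summed collagen FPKM with vehicle, 21.7% under amiodarone, 32.1% under dabigatran and 24.6% under both drugs. Over the same libraries Col4a1 and Col4a2 made up 31.0%, 40.4%, 30.6% and 35.1%, so that Col4a1 per Col1a1 was 1.63, 2.55, 1.53 and 2.03.

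**Figure D4:**
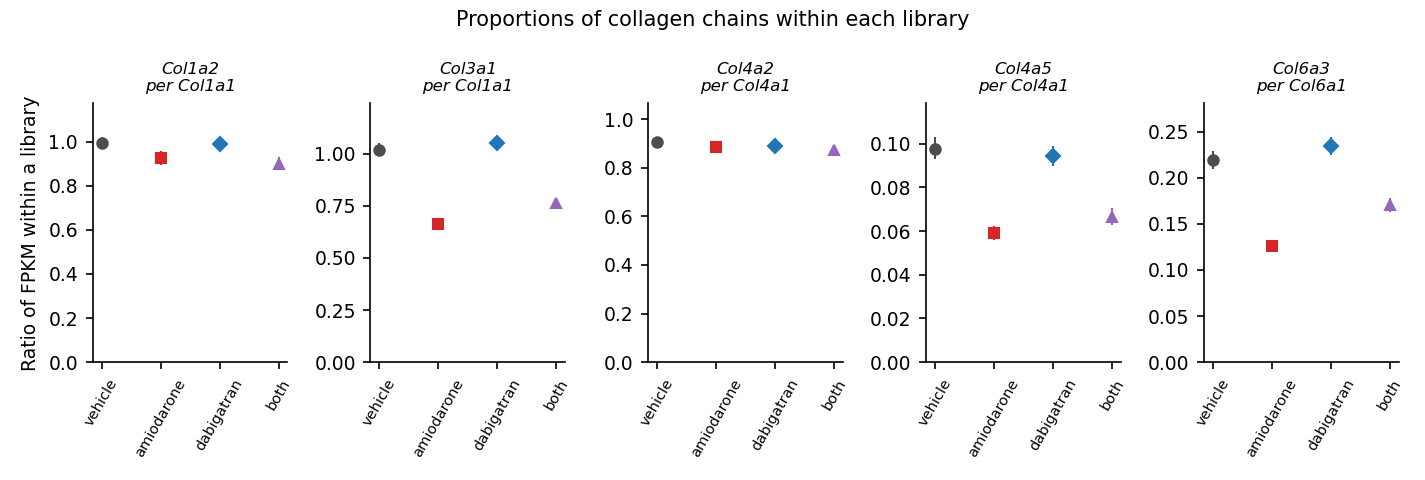
Ratio of FPKM of pairs of collagen chains within each library, each panel with its own axis from 0 and bars for the 95% interval of counting error. Col1a2 per Col1a1 and Col4a2 per Col4a1 lie between 0.875 and 0.995, whereas Col3a1 per Col1a1 lies at 0.661 and 0.762 in the libraries with amiodarone and at 1.02 and 1.05 in those without.

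Type VI collagen divided by chain. Col6a1 was at 81.29 FPKM with vehicle, 88.60 under amiodarone, 89.11 under dabigatran and 86.97 under both drugs, and Col6a2 was at 72.56, 69.61, 82.99 and 75.95 FPKM. Their ratios in the 4 comparisons lay between 0.915 and 1.14. Col6a3, the long chain that completes the type VI molecule, was at 17.83, 11.15, 20.88 and 14.82 FPKM, and both libraries with amiodarone were below both without it. Its ratio of amiodarone to vehicle was 0.625 (0.590 to 0.663), and that of amiodarone + dabigatran to dabigatran was 0.710 (0.674 to 0.747). Col6a3 per Col6a1 was 0.219 (0.210 to 0.229) with vehicle and 0.126 (0.120 to 0.132) with amiodarone. With dabigatran it was 0.234, and with amiodarone + dabigatran 0.170.

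The later-described type VI chains Col6a4, Col6a5 and Col6a6 lie side by side on chromosome 9, and all were near the limit of detection. Col6a4 had 6, 8, 25 and 11 reads with vehicle, amiodarone, dabigatran and amiodarone + dabigatran. Col6a5 had 8, 10, 30 and 9 reads, and Col6a6 had 4, 4, 11 and 6 reads. For each chain the dabigatran library was the highest, with ratios to vehicle of 3.60 (1.44 to 10.7), 3.60 (1.61 to 9.09) and 3.0 (0.889 to 12.9). These chains resemble each other in sequence. Their estimated counts were whole numbers in every library, but how single reads were assigned among them was not tested. With so few reads each ratio stays uncertain. Acta1, the skeletal muscle actin, which was picked out after its values were seen, had 62 reads in the dabigatran library and 3 or 4 reads in each of the others. The other 4 markers of skeletal and cardiac muscle were below vehicle with dabigatran, at ratios of 0.923 (Ckm), 0.830 (Ttn), 0.695 (Myh6) and 0.644 (Myl7). The part of Acta1-expressing tissue in these values was not tested. Over the 5 skin markers the summed level was 1.67, 1.47, 2.15 and 1.28 FPKM.

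Of the chains of other types, the fibril-associated chain Col12a1 came closest to the pattern of Col3a1. It was at 6.02 FPKM with vehicle, 3.33 under amiodarone, 7.06 under dabigatran and 4.07 under both drugs, and the libraries with amiodarone were again the lower pair. Its ratios were 0.553 (0.504 to 0.607) for amiodarone to vehicle and 0.576 (0.529 to 0.627) for amiodarone + dabigatran to dabigatran. Col15a1, a chain of the basement membrane zone, was at 4.51, 2.86, 4.44 and 2.64 FPKM, with ratios of 0.634 (0.541 to 0.742) and 0.595 (0.506 to 0.698). Its relative Col18a1, whose fragment endostatin is known to inhibit vessel growth, was at 11.70, 11.66, 15.54 and 12.78 FPKM. The Col18a1 value with dabigatran stood apart from vehicle (1.33, 1.23 to 1.43), and its ratio of amiodarone to vehicle, 0.997 (0.918 to 1.08), changed side of 1 with the scaling.

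Among the transmembrane collagens, Col13a1 was at 22.83 FPKM with vehicle, 16.53 under amiodarone, 23.94 under dabigatran and 22.96 under both drugs. Only its amiodarone library stood apart, at 0.724 (0.665 to 0.789) of vehicle, and amiodarone + dabigatran was 1.39 (1.28 to 1.51) times amiodarone, the highest such ratio of any chain with more than 100 reads. Col23a1 was at 18.97, 15.94, 18.24 and 15.43 FPKM, lower in both libraries with amiodarone. Col25a1 had 5, 12, 5 and 5 reads, and its ratio of amiodarone to vehicle, 2.25 (0.738 to 8.15), lay within counting error.

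A further 3 chains passed 1.5-fold from few reads. Col9a3, a fibril-associated chain of cartilage, had 5, 19, 14 and 15 reads with vehicle, amiodarone, dabigatran and amiodarone + dabigatran, and its ratio of amiodarone to vehicle was 3.55 (1.28 to 12.1). Col28a1, a chain reported around peripheral nerve, had 50, 22, 41 and 24 reads, with ratios of 0.431 (0.249 to 0.725) and 0.531 (0.307 to 0.899) for amiodarone to vehicle and for amiodarone + dabigatran to dabigatran. Col26a1 had 16, 6, 11 and 16 reads, and its ratio of amiodarone to vehicle, 0.40 (0.128 to 1.08), lay within counting error. From read counts that ratio was 0.350, and no interval was computed around this value. The last 7 chains, Col7a1, Col8a1, Col8a2, Col14a1, Col16a1, Col17a1 and Col20a1, ranged from 0.69 FPKM (Col7a1, amiodarone + dabigatran) to 10.23 FPKM (Col16a1, dabigatran). Their ratios in the 4 comparisons ran from 0.713 (Col8a2, amiodarone to vehicle) to 1.23 (Col17a1, amiodarone + dabigatran to amiodarone).

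Collagen chains are modified and folded in the endoplasmic reticulum before secretion. The counts of the lists below stand against 6.70% of all genes at least 1.5-fold higher and 9.77% at least 1.5-fold lower in amiodarone against vehicle, so that 1 gene of a list of 10 or 15 is near the background. Of the 15 genes for hydroxylation and glycosylation, 1 was at least 1.5-fold higher and 1 lower with amiodarone than with vehicle, and the median log2 ratio was -0.08. P4ha2, a catalytic subunit of prolyl 4-hydroxylase, was at 18.49 FPKM with vehicle, 29.68 under amiodarone, 19.96 under dabigatran and 23.87 under both drugs (ratio of amiodarone to vehicle 1.61, 1.46 to 1.76). P3h4, a scaffold of the lysyl hydroxylase complex, was at 15.23, 9.59, 16.05 and 13.63 FPKM (0.630, 0.545 to 0.726). The best-covered members were P4hb, the disulphide isomerase subunit, with a ratio of 1.02 (0.990 to 1.05), and the proline isomerase Ppib with 1.05 (0.998 to 1.11).

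Of the 10 genes for folding and export, 1 was at least 1.5-fold higher with amiodarone and none lower, with a median log2 ratio of -0.03. That gene was Fkbp14, an isomerase of the endoplasmic reticulum, at 5.41 FPKM with vehicle, 12.16 under amiodarone, 6.56 under dabigatran and 8.55 under both drugs (2.25, 1.94 to 2.62). Serpinh1, the collagen-specific chaperone Hsp47, was at 144.92, 107.61, 155.32 and 131.49 FPKM, in the same order of libraries as the type I chains, with a ratio of amiodarone to vehicle of 0.743 (0.714 to 0.773). Pdia3, a general disulphide isomerase, had a ratio of 1.03 (0.998 to 1.06).

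Outside the cell, propeptides are removed and fibrils are crosslinked. Of the 7 propeptide-cleavage genes with enough reads, 1 was at least 1.5-fold lower with amiodarone, and the median log2 ratio was -0.26. Pcolce2, an enhancer of procollagen C-proteinase, was at 105.55 FPKM with vehicle, 68.93 under amiodarone, 130.02 under dabigatran and 91.73 under both drugs (0.653, 0.619 to 0.689), and its relative Pcolce was at 107.99, 80.40, 128.89 and 109.15 FPKM (0.745, 0.704 to 0.787). The crosslinking enzymes went opposite ways. Lox, the founding lysyl oxidase, was at 13.60, 24.42, 15.56 and 17.55 FPKM (1.80, 1.67 to 1.93), whereas Loxl1, known for elastic fibres, was at 53.37, 30.19, 60.58 and 42.61 FPKM (0.566, 0.534 to 0.599). Over the 5 crosslinking genes the median log2 ratio was -0.13.

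The proteins that bind fibrils were mostly lower with amiodarone. Of 10 genes, 9 were below 1, 8 of them beyond counting error, 2 were at least 1.5-fold lower and none was at least 1.5-fold higher, with a median log2 ratio of -0.40. Of all genes, 8878 of 15161 were below 1, 28.1% were lower beyond counting error and 9.77% were at least 1.5-fold lower. The 2 were small proteoglycans, lumican (Lum) at 5.14 FPKM with vehicle, 2.51 under amiodarone, 5.18 under dabigatran and 1.96 under both drugs (0.488, 0.377 to 0.629), and fibromodulin (Fmod) at 4.68, 2.91, 4.35 and 3.39 FPKM (0.622, 0.503 to 0.766). The most abundant were Sparc, which binds collagen in the matrix, at 737.35, 539.65, 859.59 and 594.36 FPKM (0.732, 0.720 to 0.744), and biglycan (Bgn) at 522.62, 515.75, 608.42 and 491.41 FPKM (0.987, 0.969 to 1.01).

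Of the 9 collagen receptors, 2 were at least 1.5-fold higher and 2 at least 1.5-fold lower with amiodarone, and the median log2 ratio was -0.06. The lower pair were Ddr2, the receptor kinase for fibrillar collagen, at 14.45 FPKM with vehicle, 9.41 under amiodarone, 15.23 under dabigatran and 11 under both drugs (0.651, 0.609 to 0.696), and Mrc2, an endocytic receptor for collagen fragments, at 23.48, 14.33, 32.31 and 19.52 FPKM (0.610, 0.572 to 0.651). The higher pair were the leukocyte receptor Lair1 at 1.22, 2.18, 1.45 and 2.69 FPKM (1.79, 1.33 to 2.41) and the integrin Itga11 at 0.37, 0.56, 0.51 and 0.56 FPKM (1.51, 0.954 to 2.43), the latter within counting error. Itgb1, the common integrin subunit, had a ratio of 1.02 (0.990 to 1.04), and Ddr1, the epithelial receptor kinase, 0.730 (0.690 to 0.772).

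None of the 15 basement membrane partners of type IV collagen, which are laminins, nidogens, perlecan, agrin and peroxidasin, was 1.5-fold changed with amiodarone, and the median log2 ratio was -0.18. Perlecan (Hspg2) was at 22.39 FPKM with vehicle, 15.72 under amiodarone, 23.80 under dabigatran and 17.21 under both drugs (0.702, 0.674 to 0.731). Agrin (Agrn) was at 45.40, 49.18, 49.44 and 43.54 FPKM (1.08, 1.04 to 1.12). For agrin, as for Col4a1, each drug alone was above vehicle and the library with both drugs was below either. In amiodarone + dabigatran against dabigatran all 15 were below 1, 14 of them beyond counting error, with a median log2 ratio of -0.25. Of all genes, 8025 of 15154 were below 1 in that comparison and 22.1% were lower beyond counting error. Among genes of at least 5000 bases, 74.1% were below 1. The part of length in the values of this list was not tested.

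Among these lists, the enzymes that cleave collagen had the largest share of higher genes. Of 6 genes, amiodarone was at least 1.5-fold above vehicle in 4 and below it to that extent in none, with a median log2 ratio of 1.29. Ctsk, the lysosomal protease cathepsin K, was at 9.74 FPKM with vehicle, 73.93 under amiodarone, 10.58 under dabigatran and 51.62 under both drugs (7.59, 6.68 to 8.66). Mmp8, the neutrophil collagenase, was at 1.5, 9.23, 1.06 and 7.88 FPKM (6.15, 4.71 to 8.15). Mmp9, a gelatinase of leukocytes, was at 4.28, 9.36, 3.68 and 9.83 FPKM (2.19, 1.87 to 2.56), and Mmp13 rested on 9, 27, 5 and 15 reads (2.75, 1.26 to 6.65). The best-covered members differed from these. Mmp2, a gelatinase of mesenchymal cells, was at 44.23, 31.28, 56.96 and 27.34 FPKM (0.707, 0.665 to 0.753), and the membrane-bound Mmp14 had a ratio of 1.07 (1.0 to 1.14). The study listed Mmp2 and Mmp9 among inflammation-associated genes whose rise with amiodarone was reversed by dabigatran. In these values Mmp2 was lower with amiodarone than with vehicle. For Mmp9, amiodarone + dabigatran was 1.05 (0.933 to 1.18) times amiodarone.

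The comparison of amiodarone + dabigatran with dabigatran, which shares no library with that of amiodarone and vehicle, gave median log2 ratios of 0.00 for hydroxylation and glycosylation, -0.06 for folding and export, -0.25 for propeptide cleavage, -0.26 for crosslinking, -0.33 for fibril-associated proteins, -0.29 for receptors and 1.43 for the cleaving enzymes. With dabigatran alone the medians of the 8 pathway lists ran from -0.05 for the cleaving enzymes to 0.25 for the receptors, where Mrc2 was 1.38 times vehicle. No difference between lists was tested.

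Markers of the cells that make or neighbour collagen differed between the libraries as well. Every marker list held genes above 0, and the alveolar type 1 marker Ager, at 2250.15 FPKM with vehicle, fitted the labelled tissue. The 8 lung fibroblast markers summed to 2293 FPKM with vehicle, 1977 under amiodarone, 2205 under dabigatran and 2034 under both drugs, and all 8 were below 1 in amiodarone against vehicle, 6 of them beyond counting error. Inmt had the most reads of this list, with a ratio of 0.910 (0.894 to 0.926). The list shares Dcn and Lum with the fibril-binding list. The 6 smooth muscle and myofibroblast markers summed to 598, 376, 568 and 407 FPKM, with all 6 lower beyond counting error in both comparisons of amiodarone. Acta2, its gene with most reads, was at 180.84 FPKM with vehicle and 99.91 with amiodarone. Of all genes, 28.1% were lower beyond counting error in amiodarone against vehicle and 12.2% in both comparisons. In amiodarone + dabigatran against dabigatran, 6 of the 8 fibroblast markers were below 1 and 2 above, namely Inmt (1.12) and Pdgfra (1.03). The summed levels of both lists were lower in both libraries with amiodarone than in those without, as was the sum of the fibrillar chains, but Pdgfra was highest with both drugs, at 45.06 FPKM against 42.04 with vehicle, and Tcf21 was at 58.18 against 49.06. The part of fibroblasts and smooth muscle cells in the fibrillar result was not tested. For Pdgfra the ratio was 0.931 in amiodarone against vehicle and 1.15 in amiodarone + dabigatran against amiodarone. The study's quantitative reverse transcriptase polymerase chain reaction on individual mice went the other way. It reported a large rise of Pdgfra with amiodarone, which co-treatment with dabigatran significantly reduced. Pericyte markers summed to 85.7, 81.2, 76.8 and 75.2 FPKM, led by Pdgfrb.

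Endothelial markers, from cells that make type IV collagen, summed to 1009 FPKM with vehicle, 1056 under amiodarone, 1175 under dabigatran and 936 under both drugs. Cdh5, the gene of this list with most reads, was at 251.44, 291.20, 294.58 and 246.78 FPKM, the same order of high and low libraries as Agrn, and Vwf, picked out after its values were seen, was at 62.37, 85.97, 83.52 and 65.93 FPKM, the same order as Col4a1. In amiodarone against vehicle the list divided, with 4 markers higher and 2 lower beyond counting error, the lower ones being Kdr (0.746, 0.721 to 0.772) and Cldn5 (0.906, 0.876 to 0.937). All 6 were above vehicle with dabigatran, and all 6 were lower in amiodarone + dabigatran than in dabigatran, beyond counting error in each case. Of all genes, 13.9% were higher beyond counting error in the first of these comparisons and 22.1% lower in the second. Each marker had at least 5404 reads in every library, so that small differences exceed counting error. Alveolar type 1 markers, led by Ager, summed to 3561, 3565, 3601 and 3765 FPKM. The part of these cells in the type IV values was not tested.

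Mesothelial markers, from the lining of the lung surface, summed to 123 FPKM with vehicle, 66.4 under amiodarone, 123 under dabigatran and 135 under both drugs. Upk3b, the member with most reads, was at 44.58 FPKM with vehicle, 19.41 under amiodarone, 44.48 under dabigatran and 45.21 under both drugs. Of the 5 markers, 4 were at least 1.5-fold lower in amiodarone against vehicle (9.77% of all genes). In amiodarone + dabigatran against amiodarone, 4 were at least 1.5-fold higher (4.71% of all genes). The amiodarone library alone stood low, as it did for Col13a1, while the fibrillar chains were low in both libraries with amiodarone. Macrophage markers summed to 170, 873, 196 and 1110 FPKM, of which Chil3 alone held 90.27, 731.20, 113.43 and 940.25. Their median ratio of amiodarone to vehicle was 2.23, from 1.05 (0.997 to 1.11) for Csf1r to 8.10 for Chil3. Neutrophil markers, led by S100a9, summed to 76.9, 529, 58.0 and 371 FPKM. Markers of skeletal and cardiac muscle, led by Myh6 of the heart, summed to 595, 329, 406 and 280 FPKM. A larger share of reads from leukocytes lowers the share left for every other cell type, and how much this contributed to the lower collagen values was not tested.

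**Figure D5:**
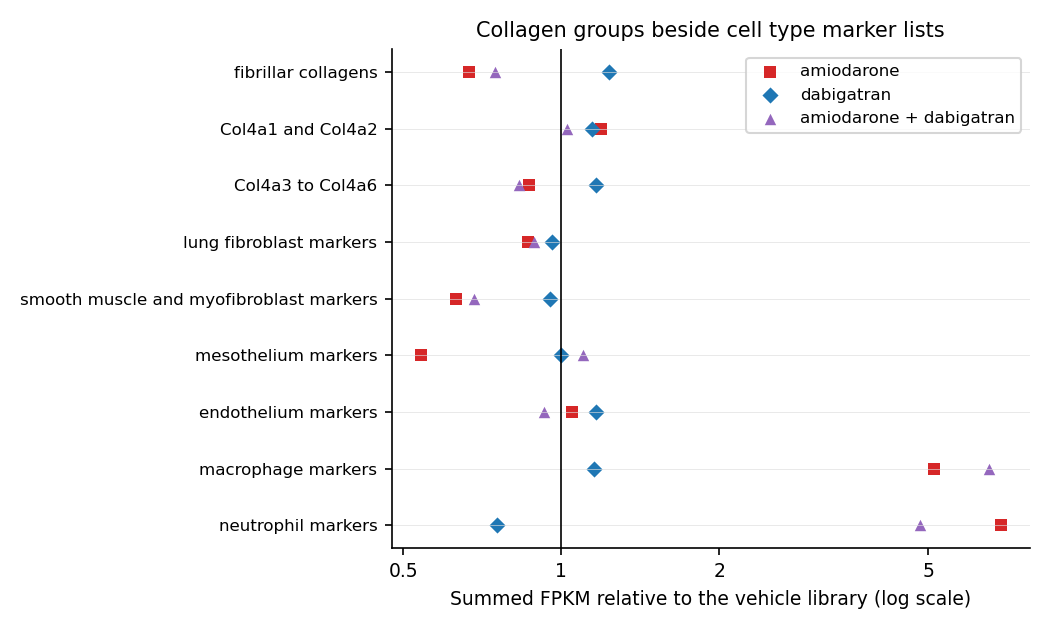
Summed FPKM of 3 collagen groups and 6 cell type marker lists relative to the vehicle library (log scale), with 1 point for each of the other libraries. Fibrillar collagens (310 FPKM with vehicle, 207 with amiodarone) and smooth muscle markers (598 and 376 FPKM) lie to the left of 1 in both libraries with amiodarone, and macrophage and neutrophil markers lie far to the right. Most of the macrophage sum is Chil3 (731.20 of 873 FPKM with amiodarone).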

How the data were processed

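Poly(A)+ RNA of mouse lung, in 4 libraries with 1 per treatment group, was sequenced by the authors on DNBseq and aligned with HISAT 2.0.4 (genome GRCm38.p6) and Bowtie2 2.2.5 (gene sequences). The deposited table holds an estimated count of reads per gene from RSEM 1.2.8 and a normalized value. The unit of the normalized value is not named by the authors, and the deposited values were read as FPKM, because reads per unit of value differed between libraries by the factor of their total reads (1.07 for amiodarone against vehicle for both). Another 8 columns of means over 2 libraries were not used.

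Ratios of FPKM were formed in Python 3.11.15 (pandas 2.3.3, scipy 1.17.1) for genes with at least 10 reads in at least 1 library, with 1.5-fold as the threshold for counts. Exact 95% Clopper-Pearson intervals used reads rounded to whole numbers and were rescaled to the ratio of FPKM. FPKM values are given to 2 decimals, so that ratios of chains with low FPKM are coarse. Fragments are not independent molecules, so intervals cover counting error only, and a count of 0 allows up to 3 reads. No p-value was computed. The effective length of a transcript was taken as reads per FPKM in genes with enough vehicle reads. The procedure was run on simulated reads that varied by counting error only, so that run says nothing of the spread between animals.

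Samples were grouped by their labels. Chains were named with values where they were fibrillar, type IV or type VI, reached 1.5-fold in a comparison or had at least 1000 reads. Of each pathway list, genes that reached 1.5-fold between amiodarone and vehicle and the 2 with most vehicle reads were named, and of each marker list those with most reads. The chains and lists were chosen with earlier results of these data known. The medians among long genes were added after seeing the data. Coordinates and upstream sequences came from RefSeq (GRCm38.p6) and exons from GENCODE M21. A lower fold (1.25) and a higher one (2), other read filters, other scalings and pseudocounts were tried as alternatives.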

Additional observations from a re-analysis of the deposited data

Results flagged for a closer look

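Col4a1 and Col4a2 differed in opposite directions in the 2 comparisons of amiodarone, beyond counting error in each. Col4a1 was 1.21 times vehicle with amiodarone and 0.904 times dabigatran with amiodarone + dabigatran, so that the first ratio was 1.33 times the second (1.30 to 1.37, counting error only). For Col4a2 the ratios were 1.18 and 0.889, and the quotient was 1.33 (1.29 to 1.37). Each rests on 4 libraries without replicates, and the difference between treatments was not tested. Of all 15107 genes, 553 (3.66%) differed in opposite directions in this way, and of the 36 collagen chains 2 did (5.56%).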

How the results depend on the processing

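No paired analysis was possible because each group has 1 library. No median changed direction under the rescalings, filters and pseudocounts tried. Single ratios were recomputed under the 2 rescalings only, and 6 of 144 changed side of 1 or equalled it, among them Col18a1 in amiodarone against vehicle (0.997, or 1.03 after median-ratio scaling and 0.959 from read counts) and Col25a1 in dabigatran against vehicle, which was above 1 as reported and 0.986 from read counts, with 5 reads in each library. Of 96 medians, 92 stayed within a margin taken from the log2 counting interval of the single chain nearest the median. That margin depends on the reads of 1 chain and is not a spread between chains or animals. The median of amiodarone + dabigatran against amiodarone was 0.01 with a pseudocount of 1, where it had been 0.08.

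Counts of chains at 1.5-fold depended on the threshold. In amiodarone against vehicle, the 7 lower chains became 3 at 2-fold, 16 at the lower fold, 20 beyond counting error and 4 with a pseudocount of 1, and the 3 higher chains became 5 beyond counting error, 1 with at least 50 reads and 0 with a pseudocount of 1. In amiodarone + dabigatran against dabigatran, the 10 lower chains became 4 at 2-fold, 20 at the lower fold, 24 beyond counting error and 4 with a pseudocount of 1, and the 0 higher chains became 1 with no filter. In dabigatran against vehicle, the 4 higher chains became 9 at the lower fold, 18 beyond counting error, and 0 with at least 50 reads or a pseudocount of 1, and the 0 lower chains became 2 at the lower fold, 1 beyond counting error and 1 with no filter. In amiodarone + dabigatran against amiodarone, the 1 higher chain became 5 at the lower fold, 12 beyond counting error, 2 with no filter, and 0 with at least 50 reads or a pseudocount of 1, and the 1 lower chain became 2 at the lower fold, 3 beyond counting error, 2 with no filter, and 0 with at least 50 reads or a pseudocount of 1 or 0.1. The filter on 50 reads removes chains with few reads, and a pseudocount shrinks ratios of chains with low FPKM, by construction. Without replicates, the spread between animals is unknown for every value.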
